A study of Arabidopsis thaliana with 28 samples.

Results

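The regions described here were the intergenic H3K9ac domains of Arabidopsis thaliana seedlings, that is, the domains of acetylated lysine 9 of histone H3 (H3K9ac) that touched no annotated gene or pseudogene by as much as 1 bp. They were chosen from the domain list of the deepest labelled PHILO group, PHILO 10M replicate 1. Of the 15181 domains of that list on chromosomes 1 to 5, 125 (0.823%) met the rule, and the other 15056 are called genic domains. The series held 28 such lists with 370373 domains, from 14 groups of 2 libraries each. All libraries came from untreated, 10-day-old whole seedlings of the wild-type accession Col-0, and no mutant, transgene or treatment entered. The CUT&Tag group, in which a Tn5 transposase is tethered to the antibody and tags DNA inside the nuclei, and the eChIP group, an enhanced chromatin immunoprecipitation (ChIP) with a shortened chromatin extraction, were protocol alternatives to PHILO, a ChIP-seq procedure for many small plant samples. The PHILO groups used 1 mg of tissue, 20K, 100K or 500K nuclei, a labelled depth of 0.5M, 1M, 2M, 5M or 10M reads, or 10, 12 or 14 cycles of library amplification. Whole seedlings mix many cell types, so a strong mark in few cells and a weak mark in many cannot be told apart.

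H3K9ac is laid down by histone acetyltransferases and taken off by histone deacetylases. In plants it is best known as a mark of active genes, where it peaks just downstream of the transcription start site and shares its place with other marks of open chromatin. Away from annotated genes the mark is known from enhancers and from transcripts that an annotation lacks.

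The central 300 bases of 5 of the intergenic domains found most often in the other libraries are shown here as examples of the sequence under the mark that every library found, whatever the protocol. They are given on the plus strand of the RefSeq sequence of TAIR10.1, and capitals mark the letters of a searched motif, the telo box AAACCCT (or its reverse complement) or the TATA box TATAAA.
Domain between AT3G27210 and AT3G27220, chr3:10050451-10050750: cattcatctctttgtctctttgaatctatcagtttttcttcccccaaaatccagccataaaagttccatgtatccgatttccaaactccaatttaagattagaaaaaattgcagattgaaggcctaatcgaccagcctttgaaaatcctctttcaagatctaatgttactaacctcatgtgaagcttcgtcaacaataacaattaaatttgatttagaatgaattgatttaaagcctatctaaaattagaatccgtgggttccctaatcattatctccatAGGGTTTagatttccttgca
Domain between AT3G45250 and AT3G45252, chr3:16584451-16584750: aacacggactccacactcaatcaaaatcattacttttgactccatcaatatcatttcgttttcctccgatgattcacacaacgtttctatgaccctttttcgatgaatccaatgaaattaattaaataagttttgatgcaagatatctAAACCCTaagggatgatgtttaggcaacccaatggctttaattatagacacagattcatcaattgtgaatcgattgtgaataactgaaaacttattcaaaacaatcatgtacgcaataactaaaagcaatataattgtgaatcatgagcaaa
Domain between AT5G19250 and FAF3, chr5:6477351-6477650: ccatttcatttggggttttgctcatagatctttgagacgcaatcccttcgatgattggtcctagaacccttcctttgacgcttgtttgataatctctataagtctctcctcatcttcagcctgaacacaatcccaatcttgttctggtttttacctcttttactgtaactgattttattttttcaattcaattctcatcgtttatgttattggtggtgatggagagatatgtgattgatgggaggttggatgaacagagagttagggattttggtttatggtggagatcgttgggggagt
Domain between AT2G23690 and AT2G23700, chr2:10075451-10075750: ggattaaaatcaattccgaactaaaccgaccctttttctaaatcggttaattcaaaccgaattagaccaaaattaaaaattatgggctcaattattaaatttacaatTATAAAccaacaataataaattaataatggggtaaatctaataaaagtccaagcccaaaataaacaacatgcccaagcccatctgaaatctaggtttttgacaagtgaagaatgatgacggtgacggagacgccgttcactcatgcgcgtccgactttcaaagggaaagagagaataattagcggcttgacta
Domain between AT2G14510 and AT2G14520, chr2:6180951-6181250: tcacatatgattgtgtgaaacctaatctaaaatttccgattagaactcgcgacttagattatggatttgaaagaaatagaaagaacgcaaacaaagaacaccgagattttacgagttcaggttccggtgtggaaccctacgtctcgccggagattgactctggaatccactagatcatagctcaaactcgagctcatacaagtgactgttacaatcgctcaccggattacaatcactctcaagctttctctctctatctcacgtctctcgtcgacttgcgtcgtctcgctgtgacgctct
Of these 5 sequences, the AT3G27220 and AT3G45252 domains held a telo box, the AT2G23700 domain a TATA box, and 2 held none of the 4 motifs searched. Their GC contents were 34%, 32.3%, 39.7%, 35.3% and 44% in the order printed.

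Intergenic domains were narrow and weakly enriched beside genic ones in the list that chose them. Their median width was 600 bp (200 to 5200 bp), against 1000 bp (200 to 11800 bp) for genic domains, and 66 of the 125 (52.8%) were 600 bp wide or less, against 18.7% of genic domains. The median deposited log2 fold change of ChIP over IgG, the control precipitation with an unspecific antibody, was 1.51 (0.18 to 3.46) for intergenic and 2.14 for genic domains. Intergenic domains held a median of 205 ChIP reads per kb, against 328 for genic domains, while the IgG reads per kb were 78.6 in intergenic and 74.0 in genic domains. All 125 together covered 122000 bp. These values come from the list that the rule used and are descriptions with no test.

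The 125 fell on both sides of a deposited log2 fold change of 1, a limit taken from the study's own filter and applied here after their values were seen. On the upper side stood 86 domains with a median width of 600 bp, a median GC content of 36.6% and a median of 276 ChIP reads per kb. On the lower side stood 39 domains (31.2%, against 2.60% of genic domains) with a median width of 1400 bp, a GC content of 30.6% and 126 ChIP reads per kb. The IgG reads per kb were 83.3 in the 39 weak domains and 72.5 in the 86 strong ones. The median GC content of the weak domains was close to that of all 185825 bins of 200 bp that lay outside genes, 30%, and that of the strong domains lay between those bins and the genic domains, at 39.4%.

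**Figure D1:**
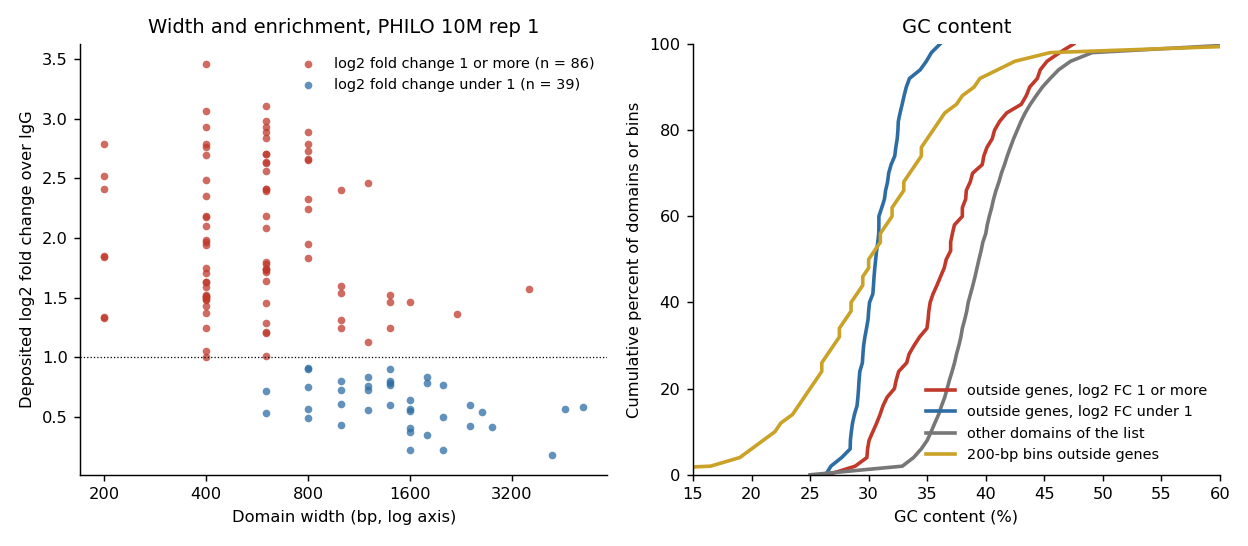
Left, each point is an intergenic domain of PHILO 10M replicate 1, with its width in bp on a log axis and its deposited log2 fold change over IgG, and a dotted line at 1. Right, cumulative percent of domains or 200-bp bins by GC content in percent: the 39 weak domains (median 30.6%, 26.3 to 36.1%) shared their median with the bins outside genes (30%), which spread wider, and the 86 strong ones (36.6%) lay nearer to the genic domains (39.4%).

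The gaps between genes that held intergenic domains had a median width of 4384 bp (quartiles 2951 and 6172 bp). The 185825 bins outside genes lay in gaps with a median of 3009 bp (quartiles 1640 and 5121 bp), and a domain wider than a bin needs a wider gap, so part of this difference was fixed by the rule. Genes covered a median of 58.6% of the 100 kb around an intergenic domain, 59.5% around a bin outside genes and 69.5% around a genic domain. In 25 of the 125 surroundings, genes covered under 50%. The distance to the nearest gene ran between 31 and 5035 bp, with a median of 796 bp and quartiles of 382 and 1244 bp. The nearest gene lay within 200 bp for 18 domains, within 500 bp for 40 and within 1000 bp for 78, and farther than 1000 bp for 47. The 28, 23, 31, 17 and 26 domains of chromosomes 1 to 5 were 0.703%, 0.991%, 1.04%, 0.734% and 0.728% of all domains of their chromosome.

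Over the 125 domains together, the orientation of the flanking genes followed the space itself. Of the 125 domains, 40 (32%) lay between divergent genes, which face the gap with their starts, 70 (56%) between tandem genes and 15 (12%) between convergent genes. Of the bins outside genes, 32.2%, 53.5% and 14.2% lay in these positions. The classes differed, with 18, 18 and 3 of the 39 weak domains and 22, 52 and 12 of the 86 strong domains in them. The nearest gene faced the domain with its start in 69 cases and with its end in 56. It was protein coding for 85 domains, a pseudogene for 22 and another non-coding gene for 18, and 7 domains had pseudogenes on both sides. Both flanking genes carried an H3K9ac domain of the same list for 30 intergenic domains, a single flanking gene for 54 and neither for 41.

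The weak and the strong domains differed in the genes whose starts they faced. Of the 39 weak domains, 36 faced a gene start on at least 1 side, and in 26 of these cases (72.2%) the gene at that start carried a domain. Of the 86 strong domains, 74 faced a start, and in 22 cases (29.7%) that gene carried a domain. The median distance to the start was 1209 bp for weak and 1128.5 bp for strong domains. Neither flanking gene carried a domain for 3 of the 39 weak domains and for 38 of the 86 strong ones. The classes were formed after the values were seen, so these shares have no test.

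Examples of the genes whose starts weak domains faced, chosen after the values were seen, are given here with no count or test of their functions. A domain at chr5:24692401-24693400 (log2 fold change 0.72) began 1213 bp from the start of MYB28, a regulator of aliphatic glucosinolate synthesis. The domain at chr3:8306201-8308600 (0.60) lay 608 bp from the start of MYB15, and the domain at chr4:12395401-12396400 (0.80) lay 1418 bp from that of WRKY53, a regulator of leaf senescence. The homeodomain gene HB-12 started 807 bp from the domain at chr3:22916201-22917800 (0.37), and the homeodomain gene KNAT3 started 3143 bp from that at chr5:8731401-8732800 (0.60). CESA6, a cellulose synthase of the primary wall, started 3832 bp from the domain at chr5:25875601-25877200 (0.22). The auxin receptor gene AFB2 started 1851 bp from the domain at chr3:9865001-9865800 (0.90), which a single other library recovered.

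The 3 widest intergenic domains were weak domains of this kind. The widest, chr3:1482601-1487800 (5200 bp, log2 fold change 0.58), filled most of a gap of 6286 bp between the end of ERCC1, a DNA repair nuclease gene, and the start of AT3G05220. Other libraries gave it a deposited log2 fold change of 2.01 and 2.23 in CUT&Tag, 1.54 and 1.67 in eChIP, 1.92 and 1.99 in PHILO 1 mg, 0.73 to 2.11 in the 6 nuclei libraries, 0.66 to 1.74 in 7 of 9 depth libraries and 0.46 to 2.34 in the 6 cycle libraries. In all 12 CUT&Tag, eChIP, 1 mg and nuclei libraries the domain that recovered it also covered a gene, against 5 of the 13 depth and cycle libraries that held it. The next widest, chr1:4534401-4539000 (4600 bp, 0.56), lay 3167 bp from the start of RAV1, an AP2/B3 transcription factor gene, and 1950 bp from the start of the long non-coding RNA AT1G05003. It measured 1.59 and 1.71 in CUT&Tag, 0.70 and 0.95 in eChIP, 1.02 and 1.13 in PHILO 1 mg, 0.55 to 1.06 in the nuclei libraries and 0.37 to 0.67 in 6 of 9 depth libraries. Both CUT&Tag values were above every other value. The domain at chr5:8709201-8713400 (4200 bp, 0.18) lay 1315 bp from the start of ESE3, an ethylene-responsive factor gene. It was held by both CUT&Tag libraries (0.87 and 1.28), 2 depth libraries and 1 cycle library, and by no eChIP, 1 mg or nuclei library.

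Some intergenic domains carried sequence that also occurs elsewhere in the nuclear genome. For 22 of the 125 (17.6%, against 7.76% of genic domains), matches to other nuclear sites together covered at least 50% of the length. A match needed 80% identity or more. Of these 22 domains, 21 belonged to the strong domains. How reads that fit more than 1 site were placed is not given in the sources used here, so the level of a copied domain may include reads of its copies. Within the 125 were 3 pairs that shared sequence. The domain at chr5:6477201-6477800 matched that at chr4:5036801-5037400, the domain at chr2:6180801-6181400 matched that at chr4:2993801-2994600, and the domain at chr2:55601-56200 matched that at chr4:11116801-11117400. The domain at chr2:10075001-10076200 was the only 1 of the 125 that matched an organelle genome, as did 10 genic domains. Overlap with annotated transposons was not analysed here.

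Translated sequence of 21 intergenic domains resembled an annotated protein, and 19 of the 21 were strong domains. At chr1:8781801-8782800 a stretch of 92 residues was 100% identical to the protein of AT1G24793. The pair at chr2:6180801-6181400 and chr4:2993801-2994600 resembled the protein of AT4G05631 over 26 and 62 residues, with 96.2% and 100% identity. At chr2:9713801-9714400 the likeness was 61.3% over 93 residues to AT1G60720, and at chr4:11671001-11671400 it was 60.7% over 61 residues to AT4G28200. The median GC content of these 21 domains was 40.8%.

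The 4 motifs were searched on both strands in the central 300 bases. The G-box CACGTG, bound by bHLH and bZIP factors, stood in 10 intergenic domains (8%), in 4.05% of genic domains and in 3.78% of 127737 windows of the same length outside genes. The TATA box TATAAA stood in 42 (33.6%), in 21.9% of genic domains and in 52.7% of the windows. The telo box AAACCCT stood in 15 (12%), in 14.6% of genic domains and in 6.98% of the windows, and 14 of the 15 were strong domains. The site II element TGGGCC stood in 3 (2.4%), in 4.39% of genic domains and in 5.42% of the windows. Among the weak domains 51.3% held a TATA box, close to the windows, and among the strong domains 25.6%, close to the genic domains. A match is a string of letters and not a binding site, and the sets differed in GC content.

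The domains described next were chosen because they were recovered most often, so their presence across the protocols was fixed by that choice. In all, 9 domains had a counterpart in all 27 other libraries, and the 5 sequences printed above belong to domains among these with a high median log2 fold change. The domain at chr3:16584201-16585000 lay 52 bp past the end of the pseudogene AT3G45250 and 1047 bp before the start of AT3G45252, with no domain on either. Its deposited log2 fold change was 1.39 and 1.78 in CUT&Tag, 2.23 and 2.69 in eChIP, 2.63 and 2.67 in PHILO 1 mg, 1.96 to 3.20 (median 2.78) in the nuclei libraries, 2.70 to 3.99 (3.03) in the 9 depth libraries and 2.50 to 3.19 (2.79) in the cycle libraries. Every counterpart lay outside genes. The CUT&Tag values were below all others. Genic domains were lower there as well, with a median log2 fold change of 1.40 and 1.22 in the CUT&Tag libraries. Their medians were 1.63 and 1.65 in eChIP and 2.10 to 2.96 in the depth libraries. All 28 lists were called against the same IgG library, and the IgG counts were the same wherever an interval appeared again in another list (58881 intervals).

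The domain at chr3:10050201-10051000, 68 bp past the end of AT3G27220, measured 1.32 and 1.33 in CUT&Tag, 2.35 and 2.36 in eChIP, 2.66 and 2.72 in PHILO 1 mg, 1.25 to 2.98 in the nuclei libraries, 1.93 to 3.46 in the depth libraries and 2.60 to 2.96 in the cycle libraries. Here the CUT&Tag values overlapped those of the nuclei libraries, and the counterpart reached a gene in both CUT&Tag and 2 nuclei libraries.

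The domain at chr5:6477201-6477800, 1597 bp past the end of FAF3, measured 0.73 and 1.06 in CUT&Tag, 2.01 and 2.08 in eChIP, 2.08 and 2.78 in PHILO 1 mg and 1.17 to 2.77 in the nuclei libraries. The depth and cycle libraries gave 2.43 to 3.20 and 2.51 to 2.93. Its counterpart lay outside genes in all 27 libraries. At chr2:6180801-6181400 CUT&Tag gave 1.06 and 1.64, eChIP 1.99 and 2.00, PHILO 1 mg 2.37 and 2.43, and the depth libraries 2.45 to 3.76. CUT&Tag and eChIP lay below every depth library there, as did the medians of their genic domains. At chr2:10075001-10076200, the domain with organelle likeness, the spread was wider. CUT&Tag gave 1.45 and 1.69 there, eChIP 1.23 and 2.89, PHILO 1 mg 1.80 and 2.16, and the depth libraries 1.84 to 4.33, and the groups overlapped.

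At 3 further domains found in all 27 libraries the counterpart reached a gene in 17, 8 and 4 libraries. The domain at chr5:26337001-26337600 lay 64 bp past the end of CGR3, a pectin methyltransferase gene, and 4188 bp from the start of ACS5, which encodes an enzyme of ethylene synthesis. Its deposited log2 fold change ran between 1.16 and 3.05 over the 27 libraries. The domain at chr1:28868801-28872400 (3600 bp) lay between the long non-coding RNA AT1G76878 and GT2, a trihelix transcription factor gene, and measured 1.40 to 2.62 over the 27 libraries. The domain at chr1:8781801-8782800, with 4 copies elsewhere in the genome, measured 1.00 and 1.20 in CUT&Tag and 2.31 to 3.58 in the depth libraries. A further 3 of the most recurrent domains, chr3:16587401-16588200, chr1:19730001-19730600 and chr5:9902601-9903400, were found in 26 libraries.

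The domains farthest from genes were also found in many libraries. The farthest domain, chr4:5358401-5359000, lay 5035 bp from the start of the long non-coding RNA AT4G05465 and was held by 25 other libraries, always outside genes. Its log2 fold change was 2.98 in the list that chose it, 1.48 in the single CUT&Tag library that held it, 2.33 and 2.43 in eChIP, 2.71 and 2.72 in PHILO 1 mg, 2.07 to 2.97 in the nuclei libraries and 2.81 to 3.26 in 8 of 9 depth libraries. The domain at chr1:14149801-14151400, 3705 bp from the nearest gene, was also held by 25 libraries, with 1.26 and 1.38 in CUT&Tag, 1.14 and 1.43 in eChIP and 1.16 to 2.17 in 7 of 9 depth libraries. The domain at chr4:5143001-5143600, 3275 bp past the pseudogene AT4G08145 and 4098 bp past the end of the homeobox gene KNAT1, was held by 18 libraries and by neither CUT&Tag library.

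Just inside the rule stood chr2:18812201-18814200, 31 bp from the start of the long non-coding RNA AT2G09655, chr5:9902601-9903400, 36 bp from AT5G27889, and chr1:2322001-2322400, 39 bp from the long non-coding RNA AT1G04593. The first of these faced, on its other side and at 1075 bp, the start of AGL20 (SOC1), a MADS box gene that promotes flowering. Its log2 fold change was 1.11 and 1.59 in CUT&Tag, where the domain reached a gene, 0.77 in the single PHILO 1 mg library that held it, 0.27 to 1.47 in 3 of 6 nuclei libraries and 0.38 to 2.26 in 6 of 9 depth libraries, and no eChIP library held it. Just outside the rule stood chr2:14162601-14163400, chr1:28784601-28785200 and chr2:13911201-13911600, which overlapped a gene by 18, 36 and 70 bp. In all, 107 of the 125 domains had no gene within 200 bp, and 9 genic domains overlapped a gene by 100 bp or less.

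Intergenic domains were found in other libraries less often than genic domains. A domain counted as recovered where the other library held any domain that overlapped it by at least 1 bp. Averaged over the 14 groups, recovery was 26.7 percentage points lower for intergenic than for genic domains (two-sided exact permutation of the signs over 14 groups, p = 0.000122, the smallest these groups allow). It was lower in 14 of 14 groups, by 3.69 to 43.0 points, and in 27 of 27 libraries. The difference shrank where width was matched. Among domains of 600 bp or less it was -10.5 points between the 66 intergenic and the 2808 genic ones (exact p = 0.000122, lower in 14 of 14 groups and in 26 of 27 libraries). Among domains of log2 fold change 1 or more, a comparison added after the values were seen, it was -24.4 points. Among those under 1, also compared afterwards and with no test, the order was mixed. Intergenic domains were recovered less often than genic ones in PHILO 0.5M (1.28% against 4.34%), 2M, 5M and 500K nuclei. They were recovered more often in every other group, as in CUT&Tag (93.6% against 64.0%) and 20K nuclei (46.2% against 20.3%).

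In the second replicate of PHILO 10M, 119 of the 125 intergenic domains (95.2%) and 98.9% of genic domains were found again, and 104 of the 125 lay outside genes in both 10M libraries. At the lowest depth, PHILO 0.5M, the figures were 15.2 ± 1.13% for intergenic and 57.8 ± 9.42% for genic domains (SD, n = 2 libraries). CUT&Tag recovered 68.8 ± 4.53% of intergenic and 81.2 ± 7.45% of genic domains, eChIP 62.4 ± 3.39% and 92.6 ± 1.17%, PHILO 1 mg 74.8 ± 3.96% and 93.9 ± 1.45%, and PHILO 20K nuclei 49.6 ± 0% and 72.8 ± 3.72%. Over the 27 libraries, 9 intergenic domains (7.2%) were found in all, against 39.2% of genic domains and 5.45% of genic domains of 600 bp or less. The 7.2% covers intergenic domains of any width, so it is not matched in width to the last share. A further 43 were found in 20 to 26 libraries, 41 in 10 to 19, 30 in 1 to 9 and 2 in none. The last 2 were chr4:557401-557800 and chr5:15952401-15952800.

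**Figure D2:**
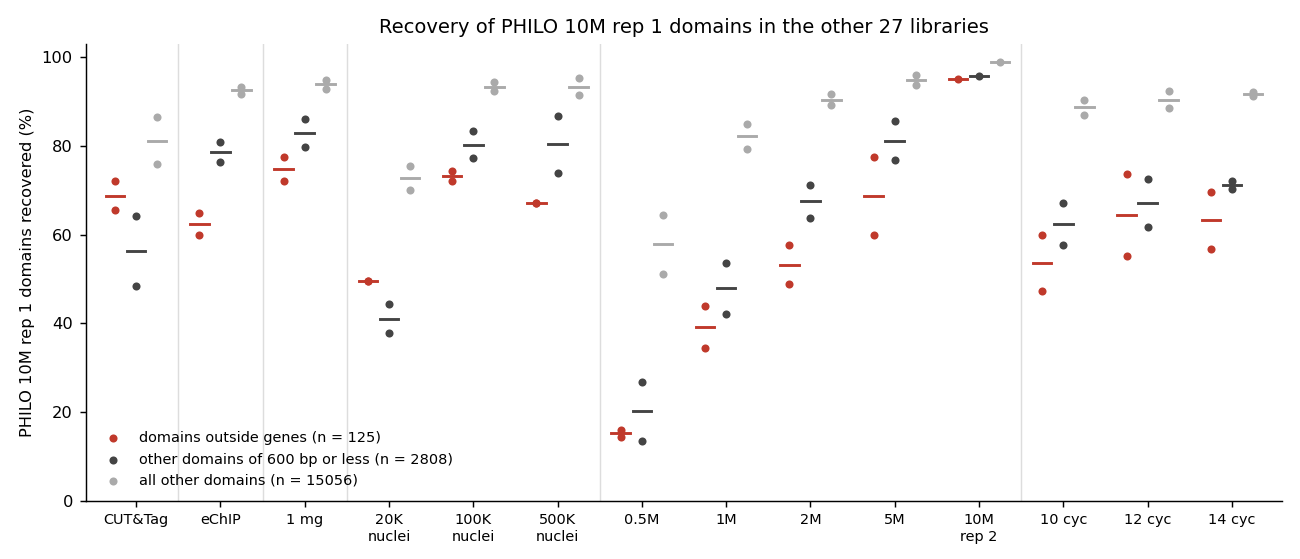
Percent of PHILO 10M replicate 1 domains that overlapped a domain in each of the other 27 libraries, by group, with a point per library and a bar at the mean. Intergenic domains (red, n = 125) lay below all genic domains (light grey, n = 15056) in every library, between 14.4% in a 0.5M library and 95.2% in 10M replicate 2. On average they lay above genic domains of 600 bp or less (dark grey, n = 2808) in CUT&Tag and 20K nuclei. The red points cover all widths. Among domains of 600 bp or less, intergenic recovery was lower than genic recovery in 14 of 14 groups.

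Recovery of intergenic domains rose with the labelled depth. The group values were 15.2%, 39.2%, 53.2% and 68.8% at 0.5M, 1M, 2M and 5M and 95.2% in 10M replicate 2. Genic domains rose at every step too, with 57.8%, 82.2%, 90.4%, 94.9% and 98.9% in the same order. The list that chose the domains came from the deepest group of this series, which favoured a rise. The tests of intergenic recovery that follow cannot tell the rise from that choice. Over the 9 libraries Spearman's rho was 0.983 and Pearson's r against the log10 of the depth was 0.967 (exact permutation, adjusted p = 0.000529 for each over 6 relations), and r was 0.933 without the 2 libraries farthest from the median depth. The number of intergenic domains in a library's own list rose as well, between 18 in a 0.5M library and 135 in 10M replicate 2 (rho = 0.949, r = 0.929, adjusted p = 0.00132 for each by exact permutation, and r = 0.858 without the 2 farthest libraries). Against the number of cycles, with 53.6 ± 9.05%, 64.4 ± 13.01% and 63.2 ± 9.05% at 10, 12 and 14 cycles, recovery showed no relation past the threshold (rho = 0.359, exact permutation p = 0.533, r = 0.456, exact permutation p = 0.4). Against the number of nuclei, with 49.6 ± 0%, 73.2 ± 1.70% and 67.2 ± 0% at 20K, 100K and 500K, it did not pass either (rho = 0.492, exact permutation p = 0.333, r = 0.716, exact permutation p = 0.133). The number of intergenic domains did go with the number of nuclei (rho = 0.970, r = 0.764, exact permutation adjusted p = 0.0444 for each). Without any 1 of the 6 libraries rho was 0.949 to 0.973, where the exact permutation p of 0.0667 is the smallest that 5 libraries allow. For the share of the list in place of the number, rho was -0.48.

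The strong and the weak domains were recovered at different depths and by different protocols. At 0.5M, 21.5% of the strong and 1.28% of the weak intergenic domains were found, at 2M 62.8% and 32.1%, at 5M 75% and 55.1%, and in 10M replicate 2 94.2% and 97.4%. CUT&Tag reversed the order, with 57.6 ± 5.76% of the strong and 93.6 ± 1.81% of the weak intergenic domains (SD, n = 2). Among genic domains CUT&Tag found 81.6 ± 7.35% of those of log2 fold change 1 or more and 64.0 ± 11.2% of those under 1. The values of both CUT&Tag libraries lay on the same side, with 53.5% and 61.6% of the strong and 92.3% and 94.9% of the weak intergenic domains. The classes also differed in width, as 74.4% of the strong and 5.13% of the weak intergenic domains were 600 bp wide or less. CUT&Tag replicates 1 and 2 found 43.9% and 53.0% of intergenic domains of 600 bp or less, and 89.8% and 93.2% of wider ones. The genic classes were not matched for width, and whether enrichment or width underlay the reversal was not tested. The classes were formed after the values were seen, so the reversal is a description with no test.

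Against the 11 standard PHILO libraries (labelled 2M or more or from the cycle series, 63.8 ± 14.1%, 47.2 to 95.2%), no protocol or input differed in recovery by the exact permutation test. The differences were 5.02 points for CUT&Tag, -1.38 for eChIP, 11.02 for 1 mg, -14.2 for 20K, 9.42 for 100K and 3.42 for 500K nuclei, with exact permutation p between 0.154 and 1. The sign of the eChIP difference changed with the settings, and the CUT&Tag difference was -11.3 points over the strong domains alone.

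Protocols were also compared by the shape of the recovering domain, which can itself lie outside genes or reach into a gene. The rule chose domains that reached no gene in a PHILO library of the depth series. Low shares were thereby favoured in the PHILO depth and cycle libraries, so these p-values cannot tell a protocol difference from that selection. In CUT&Tag 68.6 ± 0.422% of the recovered intergenic domains were part of a domain that reached a gene, against 8.83 ± 4.01% in the 11 standard PHILO libraries (2.78 to 15.3%). The shares were 30.1 ± 1.08% in eChIP, 24.1 ± 0.518% in PHILO 1 mg, 34.7 ± 7.98% in 20K and 22.9 ± 2.56% in 100K nuclei. Each of these 5 groups lay above all 11 standard libraries (exact permutation p = 0.0256, the smallest that 2 against 11 libraries allow, and adjusted p = 0.0615 over 12 differences, which did not pass the threshold). The 500K nuclei libraries, at 27.4% and 9.52%, overlapped the standard ones (exact permutation p = 0.154). Against all 15 other PHILO libraries that varied depth or cycles, where smaller p-values are possible, the adjusted p was 0.0441 for CUT&Tag, eChIP, 1 mg and 20K nuclei. In all, 98 of the 125 intergenic domains lay outside genes in most of the libraries that held them, and 54 in every such library.

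**Figure D3:**
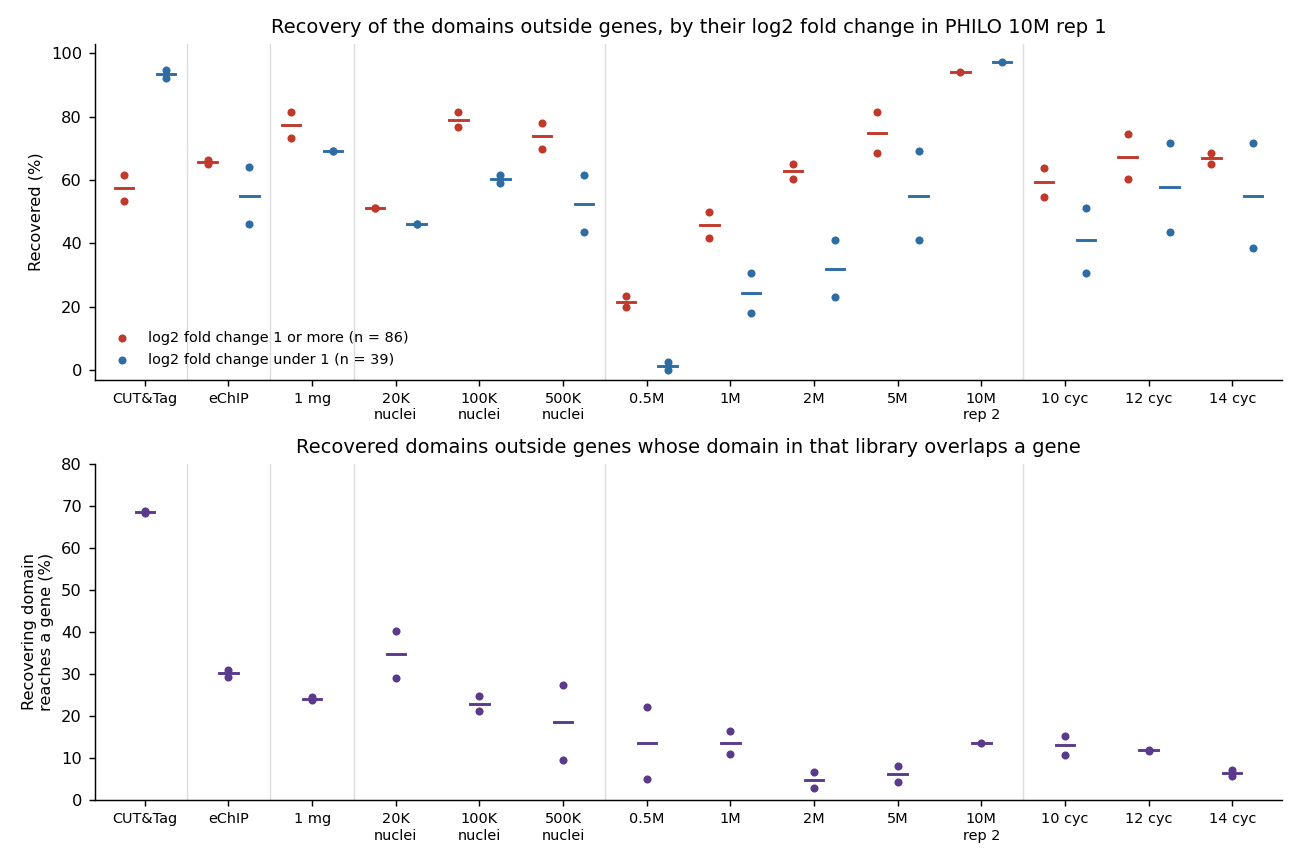
Top, percent of the 86 strong (red) and 39 weak (blue) intergenic domains recovered in each library, by group, with bars at the mean, where CUT&Tag found 57.6% of the strong and 93.6% of the weak ones. Bottom, percent of the recovered intergenic domains whose domain in that library overlaps a gene, with 68.6% in CUT&Tag and 8.83% over the 11 standard PHILO libraries.

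**Figure D4:**
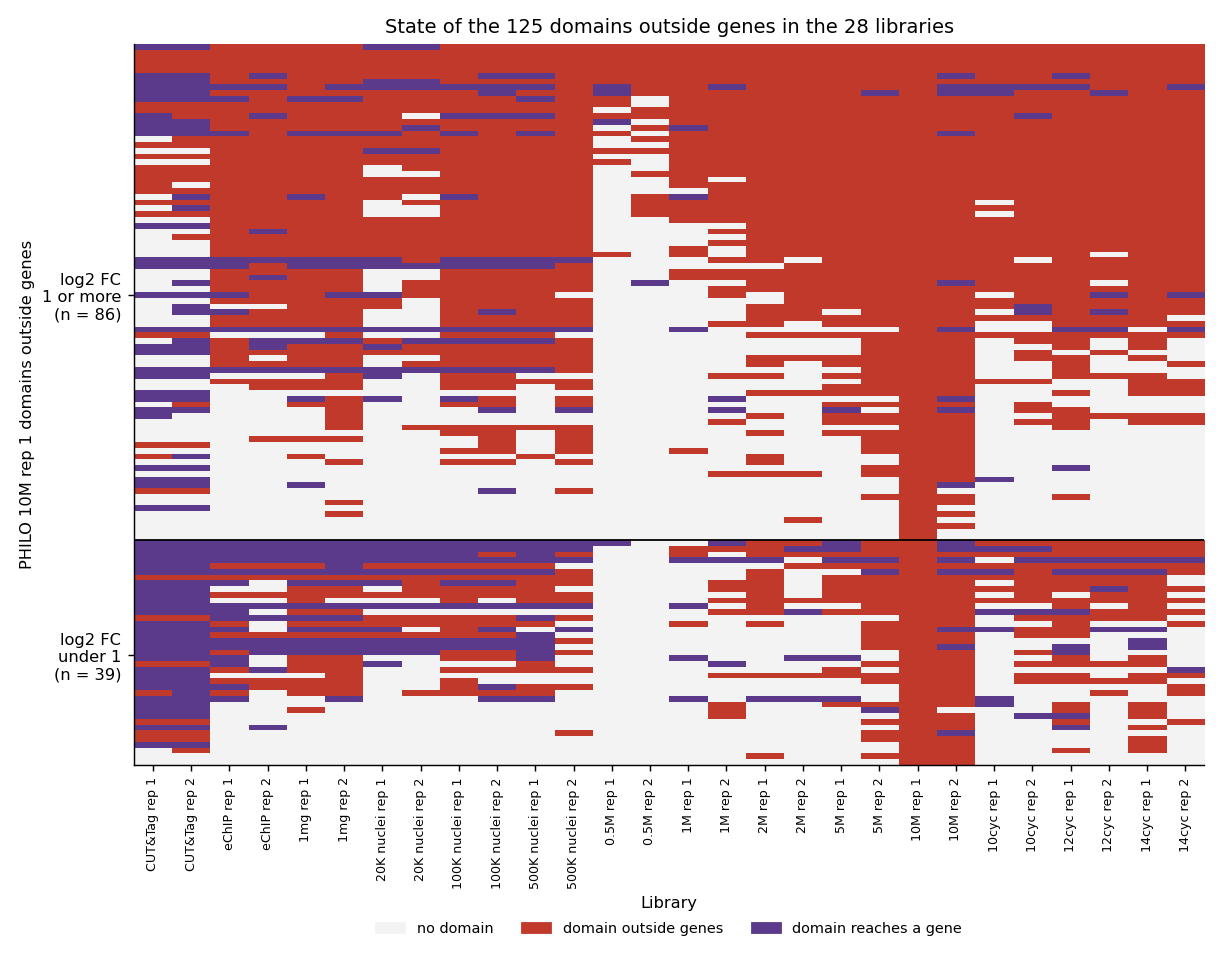
State of each of the 125 intergenic domains (rows, ordered within each class by the number of libraries) in the 28 libraries (columns): no domain (light), a domain outside genes (red) or a domain that reaches a gene (purple). PHILO 10M replicate 1 is red throughout because it chose the rows, and the weak domains are mostly purple in CUT&Tag.

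The CUT&Tag libraries also had intergenic domains of their own. Their lists held 381 and 420 domains outside genes (3.54% and 3.74% of the list), against 18 to 148 in the other 26 libraries. Of these, 352 and 383 overlapped no domain of PHILO 10M replicate 1. The corresponding means were 44.5 ± 6.36 in eChIP, 53.0 ± 18.4 in PHILO 1 mg, 54.0 ± 1.41 in 20K nuclei and 19 in PHILO 10M replicate 2 (SD, n = 2 where given). The total ChIP count in domains ran between 207252 and 7244177 over the 28 libraries, and both CUT&Tag totals, 2436271 and 4923464, lay within the range of the PHILO libraries. The green tissue markers RBCS1A, LHCB1.3 and PSBO1 carried a domain in all 28 libraries and LHCB1.1 in 25. The seed storage genes CRU3 and SESA2 carried none, CRA1 did in 2 libraries and SESA1 in 1, a CUT&Tag library. Domains on the organelle chromosomes appeared in 7 lists.

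Read counts were compared over merged regions in which each of the 4 libraries compared had called a domain, with edgeR's quasi-likelihood test and Benjamini-Hochberg adjustment over all regions. Values are CPM, the reads in a library's own domains within a region, scaled to the total of these regions in that library. Reads of a region that lay outside a library's own domains were not counted. A difference in CPM can therefore come from the width of the called domains. The comparisons of CUT&Tag, eChIP and PHILO 1 mg share the PHILO 5M libraries. A region entered only where the protocol had a domain, so domains that a protocol missed are absent, and the counts cover a selected part of the 125. Regions that also held a gene were not counted among the regions outside genes. Wide domains that reached a gene are therefore absent as well.

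Against PHILO 5M, more CUT&Tag regions outside genes were lower than higher, a direction that cannot be told apart from the selection of regions. Of the 125 domains, 16 lay in a tested region outside genes, 58 in a region that also held a gene and 51 in none. Of the 16 regions, 12 passed the test, 4 higher and 8 lower in CUT&Tag, where 44.2% of all 8074 regions passed (23.5% higher, 20.7% lower). The median log2 fold change was -0.64 over the 16 and -0.01 over all regions. The region at chr3:16587001-16588200, between the ends of AT3G45252 and the pseudogene AT3G45253, had 31.8 and 20.9 CPM in CUT&Tag, against 64.0 and 72.5 CPM in PHILO 5M, a log2 fold change of -1.42 ± 0.23 (SE, edgeR adjusted p = 0.00333). The regions at chr1:19730001-19731200 (-1.30) and chr3:16584201-16585000 (-0.94) were lower as well.

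The region of largest CUT&Tag excess, chr3:9736601-9741800, had 249 and 186 CPM in CUT&Tag, against 32.7 and 26.2 CPM in PHILO 5M, a log2 fold change of 2.88 ± 0.19 (edgeR adjusted p = 0.000287). It held the weak domain at chr3:9737801-9739400, 2259 bp from the start of the pseudogene AT3G26530 and with no domain on either flanking gene. CUT&Tag domains there were wider, and the log2 fold change was 0.99 once the model had an offset for covered length. The other 3 higher regions were chr1:14147601-14151600 (1.63), chr2:13309001-13312600 (1.09), which lay near the start of the ethylene response factor gene ERF15, and chr1:11453401-11455200 (0.71). With the offset these 3 fell to 0.47, 0.02 and 0.24 and no longer passed (edgeR adjusted p = 0.0777, 0.957 and 0.368). Without PHILO 5M replicate 1 or replicate 2, 7 of the 16 regions passed each time, where 21.9% and 22.4% of all regions did. With the total count as library size the median over all regions moved to -0.16, and 4 of the 16 were higher and 10 lower, where 47.5% of all regions passed.

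In eChIP against PHILO 5M, 39 of the 125 domains lay in a tested region outside genes, 36 in a region with a gene and 50 in none. Of the 39 regions, 13 passed, 3 higher and 10 lower in eChIP, where 28% of all 12466 regions passed (11.9% higher, 16.1% lower). The region at chr5:19176001-19179000, past the end of the pseudogene AT5G47225, had 87.5 and 66.6 CPM in eChIP, against 24.3 and 22.6 CPM in PHILO 5M (log2 fold change 1.71 ± 0.17, edgeR adjusted p = 0.000202). The eChIP domains there were wider (3000 and 2800 bp, against 1200 and 1000 bp), and with the offset for covered length the value was 0.31 (edgeR adjusted p = 0.240). The region at chr2:9713801-9714600, whose translated sequence resembled AT1G60720, had 24.4 and 24.3 CPM in eChIP, against 43.5 and 50 CPM in PHILO 5M (-0.94 ± 0.17, edgeR adjusted p = 0.00304). The copied region at chr1:8781801-8782800 had 77.1 and 75.3 CPM in eChIP, against 108 and 98.4 CPM in PHILO 5M (-0.43 ± 0.10, edgeR adjusted p = 0.0130). With the offset these last 2 values were -0.53 and -0.43 and did not pass either (edgeR adjusted p = 0.0539 and 0.0548). Without PHILO 5M replicate 1 or replicate 2, 4 of the 39 passed each time, where 12.6% and 13.9% of all regions did. With DESeq2 5 of the 39 passed (17.2% of all regions), and with the offset 2 (22.3%).

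In PHILO 1 mg against PHILO 5M, 48 domains lay in a tested region outside genes, and 5 of the 48 passed, 4 higher and 1 lower, where 24.2% of all 12978 regions passed (9.99% higher, 14.2% lower). The share of these regions was below the share of all regions. The region at chr5:19176001-19179000 had 81.4 and 82.5 CPM in PHILO 1 mg, against 24.0 and 22.3 CPM in PHILO 5M (log2 fold change 1.83 ± 0.12). The region at chr3:7820401-7821200, past the end of FHY3, a transposase-derived transcription factor gene of light signalling, had 41.3 and 42.0 CPM in PHILO 1 mg, against 26.2 and 27.7 CPM in PHILO 5M (0.62 ± 0.15, edgeR adjusted p = 0.0112). An offset for covered length lowered the log2 fold change to 0.42 in both regions, and neither passed (edgeR adjusted p = 0.164 and 0.262), nor did any other of the 48.

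In PHILO 20K against 100K nuclei, none of 29 regions outside genes passed by edgeR, where 0.0757% of all 9242 regions passed (7, all higher). With DESeq2 1 of the 29 passed (0.26% of all regions). The median log2 fold change was 0.31 over the 29 and 0.00 over all regions, and 25 of the 29 were above 0. The region at chr1:22757801-22763600 had 199 and 173 CPM in 20K nuclei, against 94.0 and 60.04 CPM in 100K nuclei (1.28 ± 0.24, edgeR adjusted p = 0.292). Without 20K nuclei replicate 1 or replicate 2, 9 and 11 of the 29 passed, where 18.4% and 19.3% of all regions did. The lone 20K library was then assumed to vary like the 100K nuclei libraries.

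**Figure D5:**
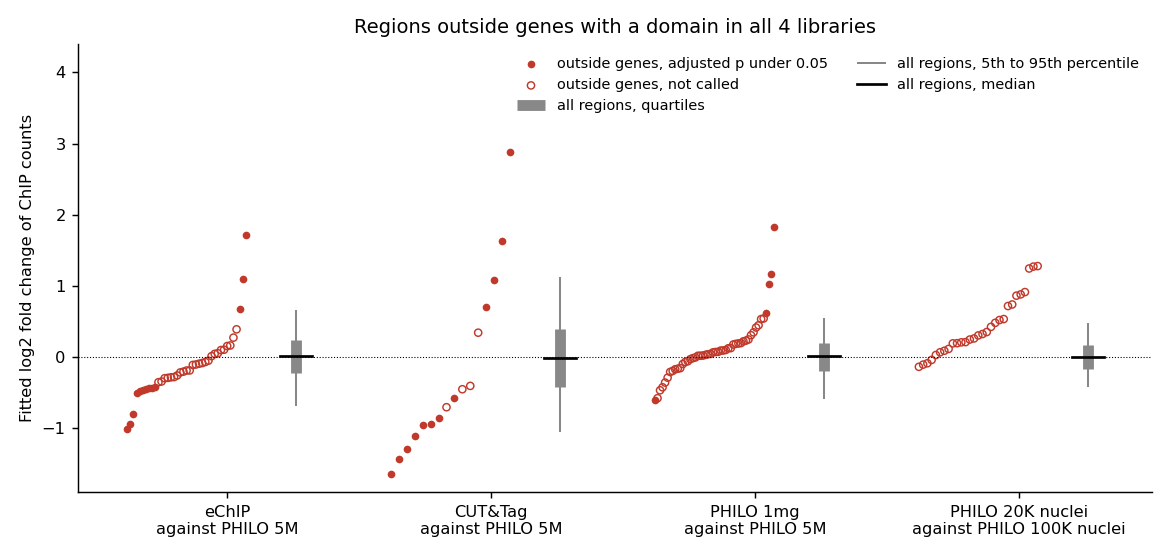
Fitted log2 fold changes of ChIP counts in the 4 comparisons for regions outside genes that held an intergenic domain (red points, sorted, filled where the adjusted p was under 0.05), beside all tested regions (grey, quartiles and percentiles, black bar at the median). The median of the regions outside genes was -0.64 in CUT&Tag, -0.19 in eChIP, 0.07 in PHILO 1 mg and 0.31 in 20K nuclei.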

How the data were processed

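H3K9ac was profiled in 28 libraries of untreated 10-day-old Col-0 seedlings, which the sample titles put in 14 groups of 2. Nothing beyond the replicate numbers describes separate cultures, so p-values measure the spread between these libraries only. The authors aligned reads to TAIR10 with Bowtie2 and called domains per library with epic2, an implementation of SICER (version 0.0.52 per the labels), against IgG. The sources used here give no window, gap or duplicate handling. For each domain the authors deposited whole-number counts of ChIP and IgG reads. They also deposited the log2 fold change of these counts after scaling by library size, a p-value with its false discovery rate, and a score that was not used here. Reads outside domains were not analysed here, so totals are counts in domains (207252 to 7244177 a library).

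Intergenic domains were those of PHILO 10M replicate 1 with no overlap with the 33056 genes and 4843 pseudogenes of the RefSeq annotation of TAIR10.1, which holds more non-coding RNAs than TAIR10 itself. Coordinates are 1-based. Members, gene lists and classes were chosen with earlier results of these data known. The text names the 12 most recurrent domains (except 1 that is not reported here), the 3 widest, the 3 farthest from and nearest to a gene, the 3 genic domains with the least overlap, up to 10 domains called in a comparison, and others said to be chosen after their values were seen. Copies were sought with BLAST 2.17.0 (80% identity, e-value 1e-10), translated likeness at an e-value of 1e-05. Group differences and correlations were tested by two-sided exact permutation with Benjamini-Hochberg adjustment over 6 relations or 12 differences. Counts over merged regions were tested with edgeR 4.0.16 (TMM scaling, threshold 0.05), and DESeq2 1.42.0 was an alternative. The scripts were tested on simulated data. Alternatives were 50% overlap, stricter false discovery rate or fold change limits, other reference libraries, a 200 bp distance from genes, other scalings, a length offset, a coverage minimum of 80%, a replicate block and leaving out each library.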

Additional observations from a re-analysis of the deposited data

How the results depend on the processing

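Over 23 results, 347 of 386 alternative values kept their direction and their side of the threshold or stayed within 1.5 times the count. The lower recovery of intergenic than of genic domains (-26.7 points) and its rise with depth did so under every alternative run, with ranges of -28.5 to -26.1 and of 0.976 to 0.982 when a library was left out. The eChIP difference in recovery (-1.38 points) was 0.18 with 50% overlap, 10.7 with a false discovery rate of at most 1e-10, 0.98 with domains of log2 fold change 1 or more, 1.15 over members outside genes in both 10M libraries, 8.37 against all 15 PHILO libraries, and -3.78 to 1.76 when a library was left out. The CUT&Tag difference was -11.3 over strong members alone, an alternative chosen after seeing the data. The relation between nuclei number and the number of intergenic domains fell to 0.72 with either stricter domain limit and to 0.79 with no gene within 200 bp, was -0.48 as a share of the list, and ran between 0.949 and 0.973 when a library was left out, where 5 libraries are too few to pass the threshold. Against all 15 PHILO libraries the shares that reached a gene differed by 58.5 points in CUT&Tag, 20.0 in eChIP, 14.0 in 1 mg and 24.6 in 20K nuclei, now past the threshold. The rule favoured low shares in these PHILO libraries, so the test cannot tell a protocol difference from that selection. The cause of these shifts was not tested.

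Of the regions outside genes, CUT&Tag against PHILO 5M called 1 of 1 where regions were covered to 80% in each library (main 12 of 16), and 7 to 16 when a library was left out. In eChIP the count (main 13 of 39) was 8 with the total count as library size, 5 with DESeq2, 2 with the length offset, 4 of 19 with the coverage minimum and 4 to 12 when a library was left out. In PHILO 1 mg it was 3 with DESeq2, 0 by edgeR with the length offset and 1 of 21 with the coverage minimum (main 5 of 48, 4 to 6 when a library was left out). In 20K against 100K nuclei it was 1 with DESeq2, 2 of 6 with the coverage minimum and 0 to 11 when a library was left out (main 0 of 29). The replicate numbers mark no shared litter or day, and same-numbered libraries did not deviate together (correlations of -0.08, -0.01, 0.01 and 0.00). With a replicate block the counts were 12, 11, 5 and 1 in CUT&Tag, eChIP, 1 mg and 20K nuclei. Shares over all regions are not given here for this block, for total counts in eChIP or for the coverage minimum. The counts under these settings are therefore no result about regions outside genes. Over all regions DESeq2 called 2148 in eChIP (edgeR 3486), 1645 in 1 mg (3139) and 24 in 20K nuclei (7), and the coverage minimum left 1244, 1542 and 90, and 123 in CUT&Tag (3569). The length offset called 476 in 1 mg, and turned nearly all calls lower (55 higher and 5030 lower in CUT&Tag, 32 and 2743 in eChIP, 21 and 455 in 1 mg). With total counts CUT&Tag had 1410 higher and 2425 lower regions (main 1900 and 1669). Without PHILO 5M replicate 1 or 2 the regions called over all were 1769 and 1812 in CUT&Tag and 1570 and 1730 in eChIP, and without 20K nuclei replicate 1 or 2 they were 1704 and 1787. Where a replicate was left out, the lone library of its group was assumed to vary like the other group.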
